A study of Mus musculus with 12 samples.

Results

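H3K27me3 on the X chromosome was compared between wild-type mouse embryonic fibroblasts (MEFs, from embryos at E13.5) and wild-type epiblast stem cells (EpiSCs, from E6.5), each measured in 1 ChIP-seq library. The genes compared were those with a deposited H3K27me3 value in both libraries, 711 of the 952 X-linked genes listed. Both kinds of cells were female, Smchd1+/+ and Xist deltaA/+, from a cross of C57BL6/J with F1 animals of JF1 x C57BL6/J. The Xist deltaA allele, on 1 of the X chromosomes, lacks the A-repeat that Xist RNA needs to silence genes. The antibody was the mouse monoclonal CMA323. The series as a whole holds 12 libraries, among them the H3K9me3 libraries of the same cells and libraries of cells that lack SmcHD1 (the MD1 allele). How many embryos, cultures or clones stand behind each library is not given in the labels. The defining markers of fibroblasts and of epiblast cells are autosomal and were not analysed here, so the labelled cell types were not checked against them.

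H3K27me3 is laid down by Polycomb repressive complex 2 and marks genes held silent. Xist RNA, made from the inactive X, brings Polycomb complexes to that chromosome in cis, and the mark then spreads over much of it. A minority of X-linked genes, called escape genes, stay transcribed from the inactive X. EpiSCs and fibroblasts both keep an inactive X, at an early and a later stage of development.

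The deposited values are log2 enrichments, read here as the ratio of ChIP to matched input, multiplied by a constant of each library. The labels do not say from which X the reads came. The MEF minus EpiSC difference had a median of −1.88, so MEF values were lower as deposited in 625 of the 711 genes (87.9%). At a threshold of 2-fold, 46 genes (6.47%) were higher and 556 (78.2%) lower in MEFs. With an unknown constant in each library, a lower level of the mark in MEFs and a different scale cannot be told apart. Nor can more cells with the mark and more mark per cell be told apart in bulk chromatin. Genes were therefore compared in 2 other ways. The relative difference is the MEF minus EpiSC log2 value minus its median over all genes, called at 2-fold. The rank shift is the percentile rank in MEFs minus that in EpiSCs, where 0 is the lowest and 100 the highest of the 711 genes, called at 25 points. With 1 library a side there is no replicate check and no p-value.

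Whole-number ChIP and input pairs could be recovered behind every value, and 95% counting intervals were taken from them. These are the smallest pairs that fit, and real counts may be multiples of them that differ between genes. Gpc3 had input pairs of 329 in MEFs and 1938 in EpiSCs, and Hdac8 had 1463 and 372. For some genes the pairs may thus understate depth and the intervals may be too wide. The input pairs had a median of 110 per gene in MEFs and 80 in EpiSCs, and 112 and 137 genes were under 20. The median half-width of the interval of a relative difference was 0.49. It covers counting error alone and leaves out variation between cultures. The relative difference was beyond it in 368 genes.

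The 2 libraries differed in the shape of their distributions. MEF values were compact, with a median of 2.11, quartiles of 1.47 and 2.52, and a range of −3.21 to 3.81. EpiSC values had a median of 4.16, quartiles of 2.81 and 4.66, and a range of −3.63 to 5.83. The lowest 10% of genes began 1.75 under the median in MEFs and 4.22 under it in EpiSCs. At least 2-fold under their own library's median were 138 genes in MEFs and 208 in EpiSCs. The EpiSC library thus had the longer tail of weakly marked genes on the log2 scale.

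**Figure D1:**
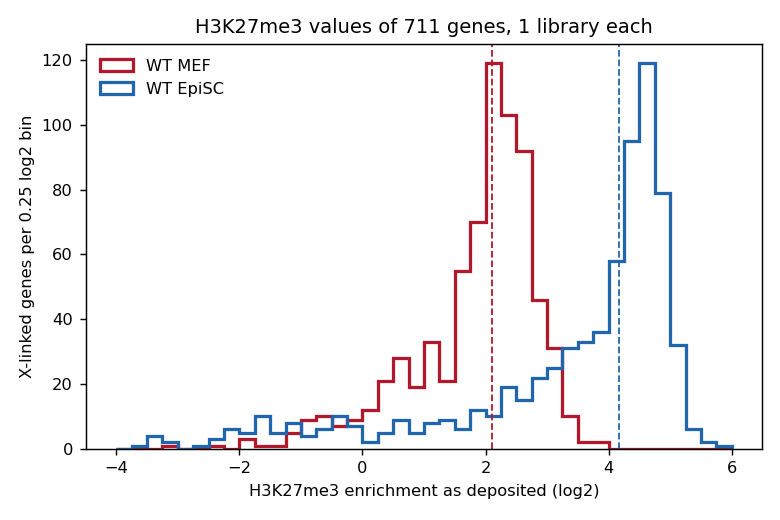
Number of X-linked genes (vertical axis) per 0.25-wide bin of deposited H3K27me3 log2 enrichment (horizontal axis) in WT MEFs and WT EpiSCs, 1 library each, with medians as dashed lines. MEF values gather around 2.11, while EpiSC values peak above their median of 4.16 and trail down to −3.63.

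Gene order was partly shared. Across the 711 genes the Spearman correlation of the 2 libraries was 0.70 and the Pearson correlation 0.74. Genes are not independent replicates, so these are descriptions of 2 libraries. The absolute rank shift had a median of 13.2 points and was at most 10 points in 282 genes (39.7%). The low end was shared more than the high end: of the 142 genes ranked under 20 in EpiSCs, 105 (73.9%) were also under 20 in MEFs. Of the 143 ranked over 80 in EpiSCs, 62 (43.4%) were over 80 in MEFs.

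By rank, 92 genes (12.9%) were at least 25 points higher in MEFs and 86 (12.1%) at least 25 points lower. By relative difference, 145 genes (20.4%) were at least 2-fold higher and 37 (5.2%) at least 2-fold lower. Most of the relative increases lay in the EpiSC tail. Of the 145, 112 (77.2%) ranked under 20 in EpiSCs, and the median rank of the 145 was 19.1 in MEFs and 11.1 in EpiSCs. Both rules together called 44 genes higher and 30 lower. The counting interval of the relative difference excluded 0 in 54 of the 92 genes higher by rank and 74 of the 86 lower by rank. For calls by relative difference it did so in 130 of the 145 and 30 of the 37, and over all 711 genes in 368. In EpiSCs the 25 rank points from the median to the upper quartile spanned only log2 values of 4.16 to 4.66. Genes higher by rank had a median length of 10405.5 bases and those lower by rank 23088, against 20144 for all 711.

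**Figure D2:**
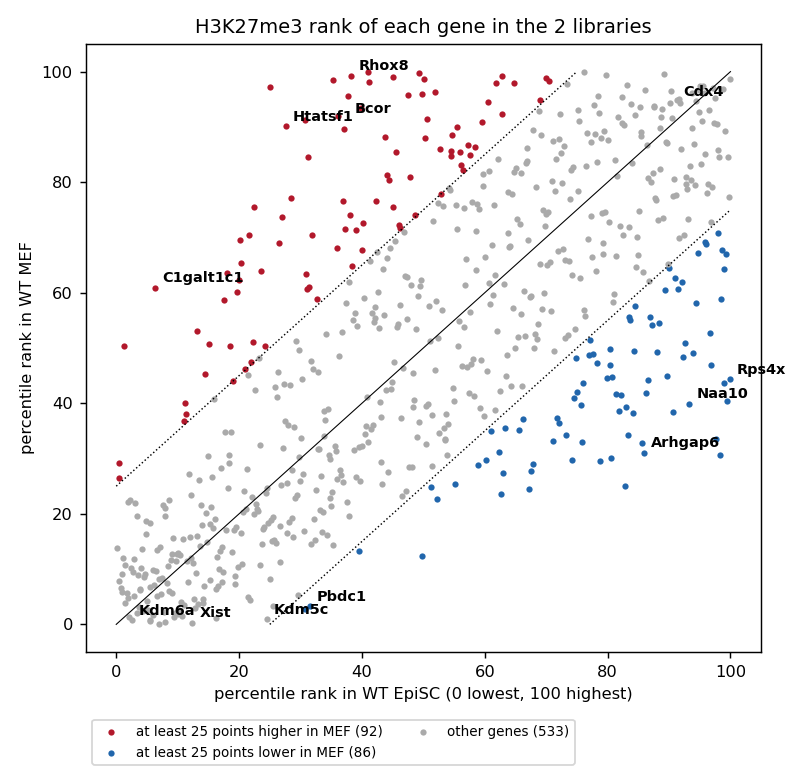
Percentile rank of H3K27me3 in WT MEFs (vertical axis) against WT EpiSCs (horizontal axis), 1 point a gene, with dotted lines at a shift of 25 points. Of 711 genes, 92 lie above the upper line and 86 below the lower line. The escape genes Kdm5c, Pbdc1, Xist and Kdm6a lie along the bottom edge.

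Genes that ranked higher in MEFs included the gene for a Polycomb-associated repressor. Bcor (X, 11613864 to 11737481, minus strand, mm9) encodes the BCL6 corepressor, a subunit of a variant Polycomb repressive complex 1. Its enrichment was 3.09 in MEFs and 3.63 in EpiSCs, ranks of 95.5 and 37.7. The relative difference was 1.34 (95% counting interval 1.18 to 1.49). The noncoding gene 2900008C10Rik ranked at 98.5 in MEFs and 35.4 in EpiSCs. It lies inside Bcor on the same strand and shares reads with it. Its smallest EpiSC input pair was 6, which allowed ranks of 19.4 to 83.8. The input pair was 679 for Bcor in EpiSCs and 157 for 2900008C10Rik in MEFs. The real EpiSC count of 2900008C10Rik was thus probably a multiple of 6, and this range is likely too wide. Bcor and 2900008C10Rik opened a run of 4 consecutive measured genes at least 25 points higher in MEFs (11613864 to 12194177). The run ended at Atp6ap2, which encodes the prorenin receptor, an accessory protein of the proton pump. This run had a median rank of 90.4 in MEFs and 43.2 in EpiSCs.

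Htatsf1 (54306747 to 54320359), a splicing-related transcription elongation factor gene, had 2.83 in MEFs and 3.05 in EpiSCs. Its ranks were 90.2 and 27.6, and its relative difference 1.66 (1.16 to 2.15). Rab33a, a small GTPase gene, ranked at 93.4 in MEFs and 39.8 in EpiSCs, with a relative difference of 1.11 (0.45 to 1.78). C1galt1c1 (35983960 to 35988320) encodes Cosmc, the chaperone of the enzyme that builds core 1 O-glycans. It had 2.27 in MEFs, an ordinary rank of 60.9, and −1.02 in EpiSCs, a rank of 6.33. Its relative difference of 5.17 (3.20 to 7.13) rested on an EpiSC ChIP pair of 3.

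C1galt1c1 closed a run of 5 genes (35669299 to 35988320) higher by rank in MEFs, which also held Atp1b4, Lamp2, Cul4b and Mcts1. Lamp2, a lysosomal membrane protein gene, had 2.12 in MEFs and 2.53 in EpiSCs, ranks of 51.1 and 22.2. Cul4b, a ubiquitin ligase scaffold gene, had 1.94 in MEFs and 0.51 in EpiSCs, ranks of 40.1 and 11.3. These genes stood near the middle of the MEF order and in the lower part of the EpiSC order.

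The Rhox homeobox cluster, whose genes are active mainly in germ line, placenta and testis, held several of the highest MEF ranks. Rhox8 (35227953 to 35232121) had 3.38 in MEFs and 3.66 in EpiSCs, ranks of 99.3 and 38.3. Rhox1 (34753800 to 34762253) had 3.34 in MEFs and 4.003 in EpiSCs, ranks of 99.02 and 45.1. A run of 5 genes from Gm9 to Rhox2h (34748497 to 35087784) was higher by rank in MEFs, with a median rank of 89.6 in MEFs and 37.3 in EpiSCs. Within the cluster, Rhox6 went the other way in rank, at 37.3 in MEFs and 46.4 in EpiSCs, and Rhox13 was at 30.2 and 29.8. The Rhox2 genes are near-identical copies, and how reads were shared among them is not given. Rhox2f, at ranks of 91.3 and 30.8, rested on input pairs of 11 and 7.

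The other genes named for large rank increases were Arxes2, Gpr165 (an orphan receptor gene), Lage3 (a subunit of the KEOPS complex for tRNA modification) and Tmsb15b1 (a thymosin beta gene). Their MEF ranks ran from 75.5 to 100 and their EpiSC ranks from 22.5 to 41.1. All 4 rested on input pairs of at most 26, and the rank ranges that counting error allows in the 2 libraries overlapped in 3 of them, all but Gpr165. Arxes2 and Tmsb15b1 have close copies beside them, so their values are uncertain.

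Among genes that ranked lower in MEFs, Rps4x, a gene for a ribosomal protein of the small subunit (99380282 to 99383710), had 2.01 in MEFs and 5.61 in EpiSCs. Its rank was 44.3 in MEFs and 99.9 in EpiSCs. The relative difference of −1.72 had an interval of −2.72 to −0.73. Naa10 (71162209 to 71167283), the catalytic subunit of an N-terminal acetyltransferase, ranked at 39.9 in MEFs and 93.2 in EpiSCs, with 1.93 and 4.94 log2 units. Its relative difference was −1.13 (−1.81 to −0.46), and its rank ranges overlapped, at 25.7 to 65.1 in MEFs and 61.6 to 99.4 in EpiSCs. Both genes therefore lay near the middle of the MEF order and near the top in EpiSCs.

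A cluster of lower ranks lay at the distal end of the X. The longest run by the rank rule held 6 genes, Prps2, Frmpd4, Msl3, Arhgap6, Amelx and Hccs (163784265 to 165758275), with a median rank of 36.2 in MEFs and 84.9 in EpiSCs. Arhgap6 (165233031 to 165742372), a GTPase activating protein gene, had the narrowest counting interval of the 24 genes named for rank shifts, with input pairs of 3311 in MEFs and 2773 in EpiSCs. It had 1.69 in MEFs and 4.80 in EpiSCs, ranks of 31.1 and 85.9, and a relative difference of −1.23 (−1.31 to −1.15). Amelx, the amelogenin gene, lies inside Arhgap6 and shares its reads. Msl3 (165091031 to 165111834), which encodes a chromodomain protein of an H4 acetyltransferase complex, had 1.74 in MEFs and 4.80 in EpiSCs, a relative difference of −1.18 (−1.54 to −0.83).

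The other genes named for large rank decreases were Wbp5, Kcne1l, Serpina7, Gm614, Rab9b, Pnck, Nxf7 and Asb11. Serpina7 encodes thyroxine-binding globulin, Rab9b a GTPase of endosome transport and Pnck a calcium-dependent kinase. Their MEF ranks ran from 25.04 to 47.0 and their EpiSC ranks from 78.8 to 99.4. The rank ranges that counting error allows overlapped between the libraries in 5 of the 8, all but Rab9b, Nxf7 and Asb11. Wbp5 showed the largest shift, −67.6 points, on an EpiSC input pair of 5.

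**Figure D3:**
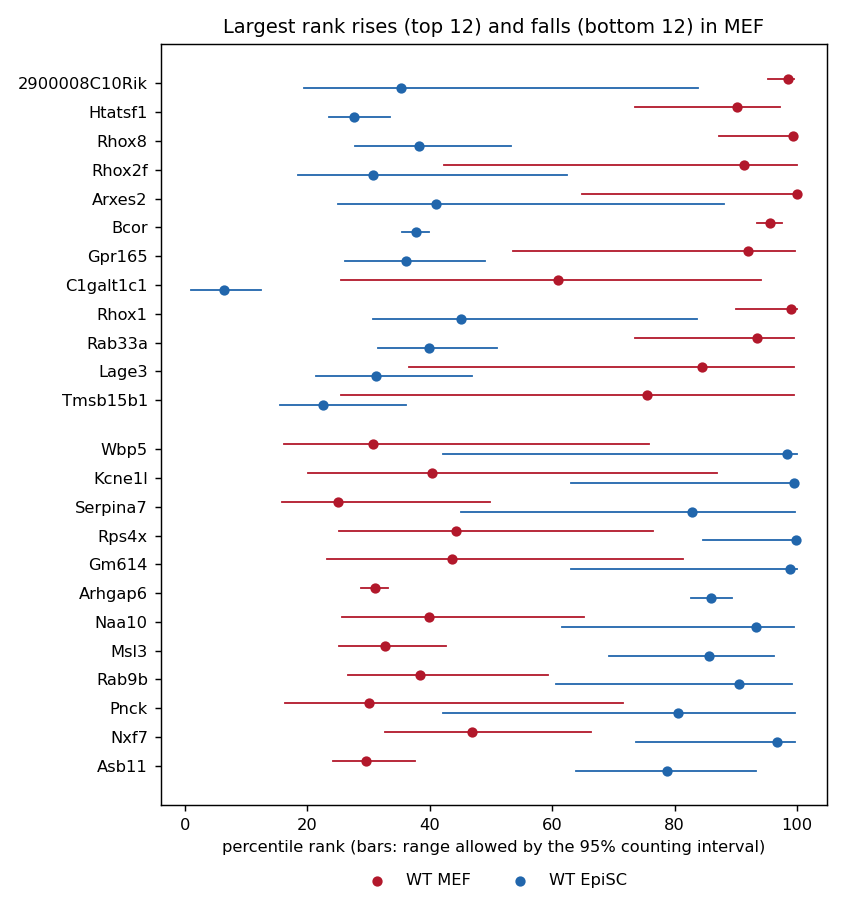
Percentile ranks (horizontal axis) in WT MEFs and WT EpiSCs of the 12 genes with the largest rank increases (top) and the 12 with the largest decreases (bottom) by the naming rule. Bars span the ranks that the 95% counting interval of the gene's own value allows, taken from the smallest whole-number pairs. Bcor, Htatsf1, Arhgap6 and Msl3 have ranges that stay far apart.

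Genes known to escape X inactivation were lower in the MEF order. Of the 12 listed, 11 had a lower rank in MEFs than in EpiSCs, 2 of them by at least 25 points, against 12.1% of all genes called that way. Their median rank was 3.02 in MEFs and 27.6 in EpiSCs. In MEFs 8 of the 12 had values under 0 on the log2 scale, as did 6.61% of all genes, and in EpiSCs 2 did, against 10.1% of all genes. By relative difference 5 were at least 2-fold lower (background 5.2%) and 2 at least 2-fold higher (background 20.4%). The list includes Xist, Ftx and Jpx, which are described again with the X-inactivation centre below. They were among the 8 under 0 in MEFs, Ftx was among the 2 past 25 points, and Xist and Ftx were among the 5 lower by relative difference.

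The H3K4 demethylase gene Kdm5c (148667770 to 148713642) had −1.45 in MEFs and 2.75 in EpiSCs, ranks of 0.98 and 24.5, and a relative difference of −2.33 (−2.69 to −1.97). It was the largest relative decrease of all 711 genes. Pbdc1 (102275095 to 102312429), of little-known function, had −0.72 in MEFs and 3.29 in EpiSCs, with a relative difference of −2.12 (−2.43 to −1.82). Eif2s3x, a translation initiation factor gene, had −1.24 in MEFs and 1.69 in EpiSCs, ranks of 1.13 and 16.3. These 3 genes sat among the weakest in MEFs and in the lower part of the EpiSC order.

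The H3K27 demethylase gene Kdm6a (17739793 to 17856484) was low in both, with −1.76 in MEFs and −1.97 in EpiSCs, ranks of 0.70 and 2.53. Ddx3x, an RNA helicase gene, was likewise low, with −1.06 in MEFs and −1.20 in EpiSCs. These are the 2 escape genes with a relative increase of at least 2-fold, which came from an EpiSC value already at the bottom. Car5b, Mid1, Utp14a and 1810030O07Rik had ordinary values, with ranks from 53.4 to 66.8 in MEFs and from 48.8 to 84.95 in EpiSCs. Mid1 is known as an escape gene in some mouse strains and tissues and not in others.

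The X-inactivation centre, which holds Xist and its regulators, contained both extremes. Xist itself (100655712 to 100678572) had −2.27 in MEFs and 0.65 in EpiSCs, ranks of 0.28 and 12.4. Ftx, a noncoding gene (100756249 to 100819093), had −0.76 in MEFs and 3.22 in EpiSCs, with a relative difference of −2.10 (−2.38 to −1.82). Jpx, another noncoding regulator of Xist, had −0.58 in MEFs and 1.21 in EpiSCs, with a relative difference of 0.09 (−0.58 to 0.77). Tsix, transcribed antisense across Xist, ranked at 33.8 in MEFs and 30.1 in EpiSCs and shares the reads of the overlap. In the same region, the homeobox gene Cdx4 (100516737 to 100525563) ranked at 98.6 in MEFs and 100 in EpiSCs. Xist thus lay among the lowest genes, near a neighbour that was among the highest. The mark over Xist, Ftx and Jpx was weak in MEFs in all 3 genes, at ranks under 5. These 3 are also counted among the escape genes above, so the 2 results are not separate observations.

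Genes that X inactivation is known to silence had median ranks near the middle, 48.5 in MEFs and 44.7 in EpiSCs. Single genes of the list ranked from 34.5 to 86.5 in MEFs and from 36.3 to 96.2 in EpiSCs. None of the 7 listed was called by either rule. Of all genes, 20.4% were called higher and 5.2% lower by relative difference. By rank the shares were 12.9% and 12.1%. With only 7 genes, the absence of calls does not set the list apart from all genes. The ubiquitin ligase gene Rlim, whose product promotes Xist expression, ranked at 78.1 in MEFs and 96.2 in EpiSCs. The chromatin remodeller gene Atrx ranked at 59.1 and 40.4. The gap between silenced and escape genes was thus wider in MEFs, where the escape median was 3.02, than in EpiSCs, where it was 27.6.

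**Figure D4:**
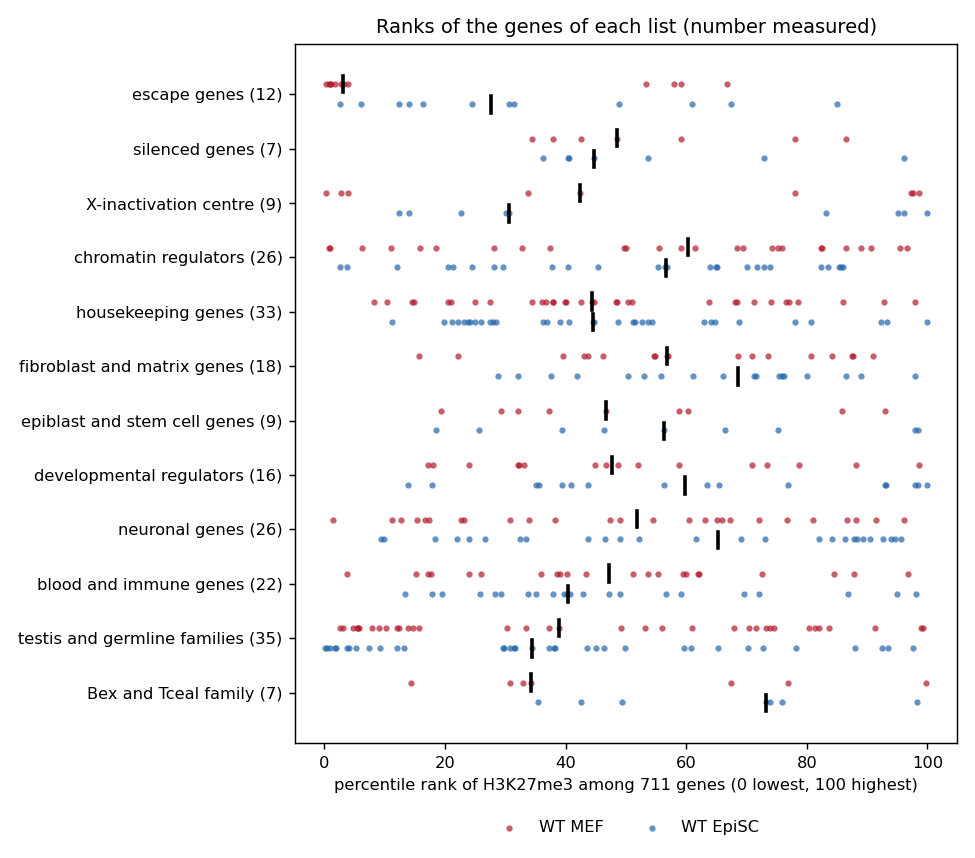
Percentile ranks (horizontal axis) of the genes in each list (rows) in WT MEFs (upper points) and WT EpiSCs (lower points), with medians as black bars. Escape genes gather at the left edge in MEFs, with a median of 3.02, and spread from 2.53 to 84.95 in EpiSCs.

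The 250 bases before the most upstream RefSeq start of 4 genes are printed to show promoters at the ends of the comparison. That start need not be the start of the gene as measured in the deposited values, and the CG counts below use the same choice. They are a gene high in both libraries (Cdx4), lower by rank in MEFs (Rps4x), higher by rank in MEFs (Bcor) and low in both (Kdm6a). CpG-rich promoters are known sites of Polycomb recruitment. The sequences are from RefSeq on GRCm38.p6 and are given from 5′ to 3′ on the gene's strand, with each CG in capitals. They lie at chrX:103321148-103321397 (plus strand), chrX:102189392-102189641 (minus), chrX:12160356-12160605 (minus) and chrX:18162325-18162574 (plus) in the order printed.
Cdx4: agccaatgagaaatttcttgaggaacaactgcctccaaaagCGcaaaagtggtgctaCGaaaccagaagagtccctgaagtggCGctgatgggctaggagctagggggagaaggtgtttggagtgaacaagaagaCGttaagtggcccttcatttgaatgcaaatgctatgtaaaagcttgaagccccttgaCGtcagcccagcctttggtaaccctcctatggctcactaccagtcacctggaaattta
Rps4x: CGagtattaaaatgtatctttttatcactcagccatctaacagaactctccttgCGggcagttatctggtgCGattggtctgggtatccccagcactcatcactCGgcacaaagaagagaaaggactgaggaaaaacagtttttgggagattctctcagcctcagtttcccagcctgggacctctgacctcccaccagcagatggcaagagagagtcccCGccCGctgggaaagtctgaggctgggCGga
Bcor: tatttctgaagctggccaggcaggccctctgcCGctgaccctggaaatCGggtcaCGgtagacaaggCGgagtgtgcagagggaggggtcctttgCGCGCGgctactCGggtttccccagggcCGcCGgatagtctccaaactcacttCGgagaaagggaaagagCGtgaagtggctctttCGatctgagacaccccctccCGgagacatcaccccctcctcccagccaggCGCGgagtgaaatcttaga
Kdm6a: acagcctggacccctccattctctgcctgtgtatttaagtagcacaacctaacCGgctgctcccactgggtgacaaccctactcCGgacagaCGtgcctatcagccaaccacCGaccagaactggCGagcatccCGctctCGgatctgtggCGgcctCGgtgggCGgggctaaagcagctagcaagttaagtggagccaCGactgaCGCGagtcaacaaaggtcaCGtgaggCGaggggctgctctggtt

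The letters CG, which read the same on both strands, occurred 5 times at Cdx4, 7 at Rps4x, 16 at Bcor and 15 at Kdm6a. Promoters were matched for 596 of the 711 genes (83.8%), 52 of them by an older name. At least 10 CG were present in 44.8% of these, against 30.6% of the 1046 X-linked genes in the RefSeq table. The median count was 9 in genes higher by rank in MEFs, 8 in those lower by rank and 8 in all. In steps of 20 rank points from low to high, the medians by EpiSC rank were 6, 9, 9, 7 and 10, and by MEF rank 7, 7, 10, 8 and 9. The deposited values cover whole genes, so they do not measure these windows themselves.

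Rank shifts followed position along the X. Between 30 and 60 Mb, 107 of 129 genes (82.9%) ranked higher in MEFs, 44 of them by at least 25 points (34.1%, against 12.9% overall). Their median rank was 55.1 in MEFs and 36.01 in EpiSCs. From 150 Mb to the distal end, 63 of 76 genes (82.9%) ranked lower in MEFs, 28 by at least 25 points (36.8%, against 12.1% overall). Their median rank was 48.7 in MEFs and 67.7 in EpiSCs. Between 130 and 140 Mb, the interval with most genes, 72 of 92 ranked lower in MEFs, with a median rank of 56.3 in MEFs and 73.8 in EpiSCs. Neighbouring genes are not independent, so these shares carry no test.

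Between 80 and 90 Mb all 14 genes ranked lower in MEFs, 4 by at least 25 points, and between 70 and 80 Mb 51 of 72 ranked higher, 16 by at least 25 points. The strongest interval in both libraries was 90 to 100 Mb, beside the X-inactivation centre, with a median rank of 79.9 in MEFs and 77.4 in EpiSCs. Of the 10 genes with the highest sum of ranks, 8 lay between 90 and 110 Mb. They included the interleukin receptor gene Il2rg (96.8 in MEFs and 94.9 in EpiSCs), the synaptic adhesion gene Nlgn3 (96.2 and 95.6) and the wax synthase genes Awat1 and Awat2. The weakest intervals were 110 to 120 Mb and 120 to 130 Mb, with 6 measured genes each and median ranks of 3.66 and 1.83 in MEFs and 12.7 and 10.1 in EpiSCs. All 12 of these genes ranked lower in MEFs, none by 25 points. They include Pcdh11x, a protocadherin gene, at 1.41 in MEFs and 9.42 in EpiSCs. The first 10 Mb were also low, at 18.6 in MEFs and 20.4 in EpiSCs.

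**Figure D5:**
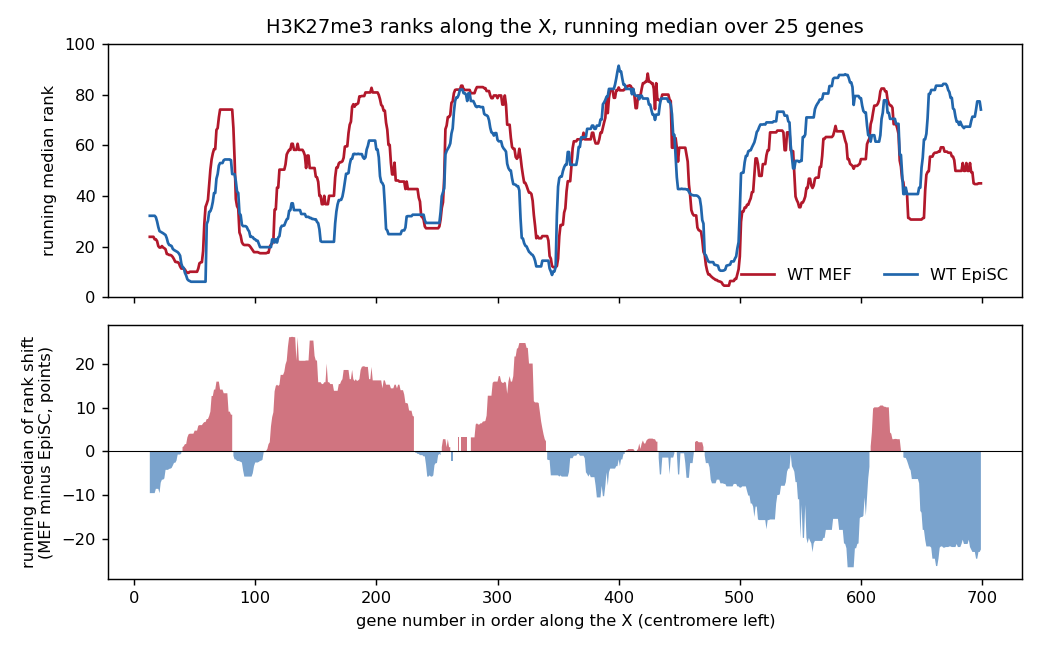
Running median over 25 genes of the H3K27me3 percentile rank in WT MEFs and WT EpiSCs (top) and of the rank shift, MEF minus EpiSC (bottom), with the 711 genes in order along the X on the horizontal axis. The 2 rank lines share their main peaks and troughs, while the shift is above 0 over much of the proximal part and below 0 over most of the distal part.

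The longest stretch of relative increase lay in the first 10 Mb. A run of 19 genes from Gm6787 to 4930402K13Rik (7674213 to 8683468) was at least 2-fold higher in MEFs relative to the median, with a median relative difference of 3.66. Its median rank was only 9.07 in MEFs and 5.20 in EpiSCs. It holds the cold-inducible RNA-binding protein gene Rbm3 and the Ssx cluster of testis genes, among them Ssxb2, with 0.67 in MEFs and −3.63 in EpiSCs on an EpiSC ChIP pair of 2. The Ssx copies are near-identical and reads may be split among them. By contrast, the longest runs of relative decrease held 2 genes, as at Samt3 and Nr0b1 (83289538 to 83441283). Samt3 rested on an EpiSC input pair of 3, and its counting interval of −3.28 to 0.35 included 0.

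Lists of cell-type genes are read against the shares of all genes called, 20.4% higher and 5.2% lower by relative difference and 12.9% higher and 12.1% lower by rank. Of 18 fibroblast and matrix genes, none was called by relative difference and 2 were lower by rank, near the share of all genes. These were the collagen gene Col4a5 (43.7 in MEFs and 75.9 in EpiSCs) and the ephrin gene Efnb1 (70.9 and 97.9). Biglycan (Bgn) ranked at 91.0 in MEFs and 75.4 in EpiSCs, a shift of 15.6 points. Of 9 epiblast and stem cell genes, the nuclear receptor gene Nr0b1 was lower by both rules, with 2.24 in MEFs and 5.21 in EpiSCs and ranks of 58.8 and 98.5. The kinase gene Pim2 was higher by relative difference, at 1.48 (0.51 to 2.45).

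Developmental regulators leaned lower in rank, in 14 of 16 against 371 of all 711, with a median shift of −10.4 points against −0.98 for all genes. By at least 25 points 3 were lower (12.1% of all genes), among them Nr0b1 and Efnb1, and 1 was higher (12.9% of all). Neuronal genes were lower in 18 of 26, with 6 lower by rank and 2 higher, against 12.1% and 12.9% overall. Glra2, a glycine receptor gene, had 1.26 in MEFs and 4.22 in EpiSCs, a relative difference of −1.09 (−1.26 to −0.92). The glutamate receptor gene Gria3 was higher, with ranks of 47.4 in MEFs and 21.9 in EpiSCs.

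Chromatin regulator genes ranked higher in 18 of 26, against 339 of all 711. By rank 1 was called higher, Bcor, against 12.9% of all genes, and 3 lower, Msl3, Morf4l2 and the Polycomb-group gene Scml2, near the 12.1% of all genes. The H3K9 methyltransferase gene Suv39h1 had 0.81 in MEFs and 0.62 in EpiSCs, a relative difference of 2.07 at ranks of 15.9 and 11.95. Housekeeping genes split, with 9 of 33 higher and 6 lower by rank, against 12.9% and 12.1% of all genes. The ubiquitin-conjugating enzyme gene Ube2a ranked at 77.1 in MEFs and 28.4 in EpiSCs, and Pdha1, a subunit of pyruvate dehydrogenase, at 48.4 and 92.3. Of 22 blood and immune genes none was called by relative difference (20.4% higher and 5.2% lower over all genes). By rank 1 was higher, against 12.9% of all genes, the Toll-like receptor gene Tlr13 (72.6 in MEFs and 40.2 in EpiSCs). Of 7 Bex and Tceal genes, 3 were lower and 1 higher by rank, against 12.1% and 12.9% of all genes, all on input pairs of at most 20.

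Testis and germline families had values in 35 of 89 listed genes, and 15 were higher and 3 lower by relative difference, against 20.4% and 5.2% of all genes. The 15 included 6 Ssx genes. By rank 7 were higher, 6 of them Rhox genes and the other Xlr, and 3 were lower, against 12.9% and 12.1% of all genes. Many members of these families have near-identical copies, and 54 of the 89 listed genes lacked a value in at least 1 of the libraries.

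H3K9me3, the other silencing mark measured in the same cells, was lower in EpiSCs where the EpiSC H3K27me3 rank was higher. In steps of 20 rank points from low to high, its EpiSC medians over all genes were 3.73, 3.24, 1.97, 0.82 and −0.16. The groups called between the cell types differ in EpiSC rank, and 112 of the 145 genes relatively higher in MEFs ranked under 20 there. The group medians below were not separated from this gradient. The EpiSC median of H3K9me3 was 3.68 (quartiles 3.31 and 3.92) in the 145 genes at least 2-fold higher, 1.21 in the 37 lower and 2.06 in all. MEF medians of H3K9me3 were 0.96, −0.19 and −0.088 in the same groups. By rank the EpiSC medians were 2.57 in genes higher in MEFs and 0.69 in those lower. A deposited EpiSC H3K9me3 value of at least 1 was found in 9 of the 10 genes lowest in both libraries, against 456 of all 711 (64.1%), and the exception was Kdm6a, at −1.43. The 2 marks of the same cells share an input, so this is a description. Its part in the H3K27me3 differences was not tested.

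The same contrast in SmcHD1-deficient cells, whose libraries are separate from the wild-type pair, is given beside it. Among 698 genes with all values, the rank shifts in MD1 and WT had a Spearman correlation of 0.12. Of 90 genes at least 25 points higher in WT MEFs, 25 were so in MD1, of 127 such genes there (18.2% of all), and 11 were at least 25 points lower. Of 86 at least 25 points lower in WT MEFs, 15 were so in MD1, of 121 such genes there (17.3% of all), and 12 were that much higher. Escape genes had a median shift of 2.15 points in MD1 and −11.1 in WT, and silenced genes −35.8 in MD1 and −2.11 in WT. At Bcor the MD1 shift was 28.1 points and at Arhgap6 −14.6.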

How the data were processed

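Fragments bound by the CMA323 antibody, and input, were sequenced from NEBNext Ultra II libraries, per the labels' protocols. The submitters' processing notes name cutadapt, BWA, SAMtools and mm9, with no versions, counting rule or minimum coverage. For each X-linked gene the authors' table gives log2 enrichment as deposited, and starts were raised by 1 to count from 1. Read as log2, 100% of values in each wild-type H3K27me3 library were ratios of whole numbers times 1 constant (relative tolerance 1e-12, denominators up to 30000). The smallest pairs, given a common input for both marks, served as depth and for 95% intervals (normal approximation on the log scale), and real counts may be multiples of them. The pair recovery and the calls were also run on simulated data. The outcome is not given here and does not check the pairs of the real libraries. Summed pairs were 877637 (MEF) and 1560023 (EpiSC) for H3K27me3 and 236468 and 182136 for input.

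Named genes were the 12 largest rank shifts each way among genes called the same way by relative difference, above the median of the library where they ranked higher, with a counting interval excluding 0 (29 higher and 22 lower met this), the 10 highest and 10 lowest in both, and members of the lists. The genes and lists were chosen with earlier results of these data known. Genes without a value were shorter (median 2825 bases, against 20144). Median-centred and rank comparisons, with no test, were computed in Python 3.11.15 with pandas 2.3.3. Some genes are not reported here.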

Additional observations from a re-analysis of the deposited data

Results flagged for a closer look

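Of the 24 genes named for large rank shifts in WT, 9 had a shift of opposite sign in MD1 cells, where each side is again 1 library, and the difference between genotypes was not tested. Opposite signs were common among all genes called by rank in WT. They occurred in 40 of 90 called higher (44.4%) and 33 of 86 called lower (38.4%), so an opposite sign does not set these 9 genes apart. Higher in WT MEFs but lower in MD1 MEFs were Htatsf1 (−16.2 points in MD1), Gpr165 (−19.5), C1galt1c1 (−7.02), Lage3 (−8.45) and Tmsb15b1 (−5.16). Lower in WT MEFs but higher in MD1 MEFs were Wbp5 (43.0 points in MD1), Kcne1l (66.9), Gm614 (20.5) and Nxf7 (26.6). Wbp5 and Kcne1l rested on EpiSC input pairs of 5 and 8 in WT.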

How the results depend on the processing

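No paired analysis was possible because each group holds 1 library. Counts by relative difference depended on the scale: as deposited 46 genes were higher and 556 lower, so higher calls made up 7.64% of calls in place of 79.7%. Higher calls came to 89 without the lowest 10% of genes and 92 with input pairs of at least 20. Lower calls came to 21 for genes of at least 5000 bases, 17 with input pairs of at least 20 and 8 at a 3-fold threshold. At 33 rank points 53 genes were higher and 50 lower. The Spearman correlation was 0.60 without the lowest 10%, a drop whose cause was not tested, and the mean difference was −1.50. Dividing each library by its median absolute deviation, 0.48 in MEFs and 0.64 in EpiSCs, gave relative medians of opposite sign for silenced genes (0.013), the X-inactivation centre (−0.086), chromatin regulators (0.34) and blood and immune genes (0.086), none of which lay over 2-fold. Escape genes then had −0.37 and housekeeping genes 0.29. The remaining lists had −0.00090 (fibroblast and matrix), −0.11 (epiblast), −0.16 (developmental), −0.099 (neuronal), 0.89 (testis and germline) and −0.78 (Bex and Tceal). The cause of these changes was not tested. The rank shifts of the 24 named genes kept their sign and stayed at 25 points or more under every alternative that included the gene. These genes were chosen for shifts of at least 49.2 points either way, so this check had little room to fail. Genes with small input pairs, such as Wbp5 and Kcne1l, were absent from the alternative with input pairs of at least 20. Small pairs were common: 112 genes in MEFs and 137 in EpiSCs had input pairs under 20, though real counts may be multiples of these.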

Other observations

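Genes with a value in 1 of the libraries entered no comparison. The 36 measured in MEFs alone had a median of 1.17 (range −0.89 to 3.06) and a median length of 4823 bases. The 8 measured in EpiSCs alone had a median of 4.20 (range 2.97 to 5.49). They were Nap1l2 (5.49), a nucleosome assembly protein gene beside Cdx4, Armcx5 (4.50), Gprasp2 (4.29), Pnma5 (4.20), Gspt2 (4.19), Tceal1 (3.80), Bex2 (3.32) and Gm14379 (2.97). A further 197 genes had a value in neither.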
